A study of Mus musculus with 16 samples.

Results

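The genes described here encode the subunits of oxidative phosphorylation, the chain of inner-membrane complexes in mitochondria that passes electrons to oxygen and makes ATP. They were chosen by name from a table of raw counts of 55335 genes: names beginning with Nduf followed by a, b, c, s or v, the genes Sdha to Sdhd, and names beginning with Uqcr, Cox4 to Cox8, Atp5, mt-Nd, mt-Co, mt-Cyt or mt-Atp. After 12 pseudogenes were left out, 108 genes matched, and 100 of them had a mean of 10 or more raw counts over the 16 mice. These 100 were 84 nuclear-encoded subunits, 8 assembly factors that the name rule also takes (Ndufaf1 to Ndufaf8), and 8 of the 13 subunits encoded by mitochondrial DNA. All 100 also passed the filter on low counts that left 16475 genes for testing.

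Whole hippocampi of 16 female mice, 4 in each of 4 groups, were sequenced at 10 months of age. WT mice were of the C57BL/6J x 129S1 strain. 3xTg mice (B6;129-Psen1tm1MpmTg(APPSwe,tauP301L)1Lfa/Mmjax) model Alzheimer's disease with human APPSwe and tau P301L transgenes, both driven in neurons by the mouse Thy1.2 element, on a presenilin 1 M146V knock-in. Each mouse carried a brain cannula and a pump that infused the ventricles for 28 days with vehicle (0.8% DMSO in artificial cerebrospinal fluid; WT-D and 3xTg-D) or with 80 µM of CAY10566 in that vehicle (WT-S and 3xTg-S). CAY10566 inhibits stearoyl-CoA desaturase (SCD), the enzyme that turns saturated into monounsaturated fatty acids. The treatment protocol in the labels names another SCD inhibitor, ab142089, whereas sample titles and treatment labels give the Cayman compound. All groups thus shared surgery and DMSO, and no unoperated mouse was among them. WT mice were strain controls, not stated to be littermates, so that the disease alleles and any difference in background cannot be told apart. Which libraries were prepared together is not given in the labels.

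Complex I oxidizes NADH and complex II oxidizes succinate, and both hand their electrons to ubiquinone. Complex III passes the electrons on to cytochrome c, and complex IV, cytochrome c oxidase, gives them to oxygen. The proton gradient built by complexes I, III and IV drives complex V, the ATP synthase. Complexes I, III, IV and V are mosaics of nuclear and mitochondrial gene products, while complex II is nuclear-encoded throughout. Neurons depend on this pathway for most of the ATP that restores ion gradients after firing. The study asked how the 3xTg genotype and SCD inhibition change hippocampal gene expression.

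Reads on genes numbered 15413385 to 23590149 per mouse. All 9 neuron markers examined (such as Rbfox3, Snap25 and Slc17a7) were detected in every mouse, at a summed 8644 to 10424 counts-per-million (CPM, scaled by TMM factors here and below), and none passed the test in any comparison. Markers of other cells did differ, between groups or between single mice. The 7 choroid plexus markers summed to 27.8 to 730 CPM in WT-D (median 53.8) and 27.5 to 291 CPM in WT-S (median 30.02). They summed to 28.3 to 45.7 CPM in 3xTg-D (median 31.07) and 28.4 to 36.7 CPM in 3xTg-S (median 30.07). The highest sums came from single mice. Ttr, 1 of the 7 markers, was at 638 CPM in WT-D replicate 4 and 245 CPM in WT-S replicate 1. In the other mice Ttr lay between 0.755 and 31.6 CPM. The sums are therefore not read as a difference between genotypes. Of the 7 markers, 4 could be tested, and 2 had no read in at least 1 mouse. The 4 ependymal markers summed to 13.5 to 17.2 CPM in WT-D, 10.9 to 17.0 in WT-S, 9.96 to 16.6 in 3xTg-D and 6.31 to 8.43 in 3xTg-S. The 5 oligodendrocyte markers summed to 3500 to 4114 CPM in WT-D, against 4531 to 5408 CPM in 3xTg-D, with 2 of 5 called higher there. The 4 hemoglobin genes summed to 14.6 to 40.3 CPM in WT-D and 29.6 to 122 CPM in 3xTg-S, with 2 of 4 called higher. No astrocyte, microglia, endothelial or oligodendrocyte precursor marker was called in any comparison. Some shared a direction all the same. All 5 astrocyte (median log2 fold change 0.24) and all 4 microglia markers (0.29) were higher in 3xTg-D vs WT-D. In 3xTg-S vs 3xTg-D all of these were lower (medians -0.23 and -0.31). The 4 endothelial markers went the other way in both (medians -0.10 and 0.10), and the precursor markers were split. The part of these markers in the results below was not tested, except where a fit with the choroid plexus score is given. In bulk tissue, fewer cells of a type and less RNA per cell cannot be told apart.

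Of the 13 mitochondrial-encoded subunits, 7 were among the most abundant transcripts, mt-Nd3 was barely counted, and 5 had almost no reads. Divided by the length of the principal transcript in kilobases (RPKM, the CPM per kilobase, mean of the 16 mice), mt-Co1, the catalytic subunit of complex IV, stood at 11637. mt-Nd1, mt-Nd2, mt-Nd4 and mt-Nd5, membrane subunits of complex I, stood at 10619, 6768, 3924 and 3565 RPKM, and mt-Cytb, the cytochrome b of complex III, at 9970 RPKM. mt-Nd6, the only subunit encoded on the other strand, stood at 766 RPKM. mt-Nd3 was counted at 1.02 to 2.72 CPM, or 4.64 RPKM. The remaining genes, mt-Co2, mt-Co3, mt-Atp6, mt-Atp8 and mt-Nd4l, had mean raw counts of 0.625, 0.5, 0.5625, 0.0625 and 0.

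Most of the genes with few counts have a second copy in the nuclear genome. For mt-Co2, 99.5% of its 75-base stretches, the length of a sequencing read, also occur in another annotated gene. The corresponding shares were 99.5% for mt-Atp6, 99.9% for mt-Co3, 98.7% for mt-Nd4l and 97.8% for mt-Nd3, against 0% for mt-Nd1, mt-Nd6 and mt-Cytb and 1.66% for mt-Nd5. Between these extremes were mt-Nd2 with 5.71%, mt-Co1 with 39.8% and mt-Nd4 with 61.5%. For mt-Atp8, none of its 75-base stretches occurs in another annotated gene, although its end overlaps mt-Atp6, and it had 1 read over all mice. Only annotated genes were searched, so a copy outside them would not be seen. The copies of its neighbors mt-Atp6 (Gm10925, chr1:24613974-24614651) and mt-Co2 lie near each other on chromosome 1. The copy of mt-Co2, Gm28661 (GRCm38, chr1:24614885-24615565), matched mt-Co2 at 681 of 681 aligned bases. The first 75 bases of both genes, a stretch as long as 1 read, are printed because they leave a read from either gene without a unique place in the genome:
mt-Co2: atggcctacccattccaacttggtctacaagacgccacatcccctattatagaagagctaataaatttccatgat
Gm28661: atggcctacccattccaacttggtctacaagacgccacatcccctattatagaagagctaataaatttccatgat

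Reads that align to several places were set apart in the table, as 11.7% to 15.4% of all reads per mouse. The counts of mt-Co2, mt-Co3, mt-Atp6, mt-Nd3 and mt-Nd4l therefore say nothing on how abundant these transcripts were, and mt-Nd4 and mt-Co1 were counted on part of their length. Whether mt-Atp8 lost reads in the same way was not tested, so its count is not read as its abundance either. The plot of counts against shared sequence shows the split.

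**Figure D1:**
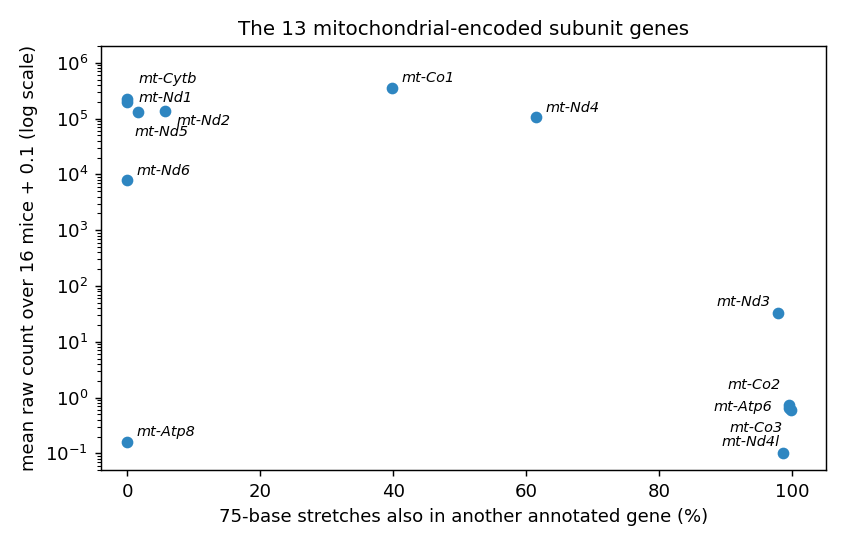
Mean raw count over 16 mice plus 0.1 (log scale, y axis) of each of the 13 mitochondrial-encoded subunit genes against the percentage of its 75-base stretches that also occur in another annotated gene (x axis). The 5 genes with over 97% shared stretches have mean counts of 32.25 (mt-Nd3) or under 1, and mt-Atp8, with 0% shared, lies at 0.0625.

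Nuclear-encoded subunits spanned a wide range of levels even within a complex. Among complex I subunits, the level per kilobase of principal transcript ran from 6.61 RPKM for Ndufab1, the mitochondrial acyl carrier protein, to 130 RPKM for Ndufb10, with a median of 68.6. Complex II ran from 21.4 RPKM for Sdhc, a membrane anchor, to 144 RPKM for Sdha, the flavoprotein that binds succinate. Complex III ran from 38.6 RPKM for Uqcrq to 253 RPKM for Uqcrh, the hinge protein. Complex IV had the widest range as a ratio, from 0.784 RPKM for Ndufa4l2 to 450 RPKM for Cox4i1, with a median of 114. Complex V ran from 1.56 RPKM for Atp5g2 to 515 RPKM for Atp5b, the catalytic beta subunit. Which gene came first depended on the length used: over the union of all annotated exons, Ndufc2 led complex I (102 RPKM), Cox8a led complex IV (277 RPKM) and Atp5a1 led complex V (249 RPKM), while the lowest gene of each complex was the same. Ndufb1-ps has no principal transcript and is given no level per kilobase.

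The isoform pairs of complex IV separated clearly by level. Cox4i1, the common isoform, was at 450 RPKM and its partner Cox4i2, known from lung and for its response to low oxygen, at 0.836 RPKM. Cox6a1 was at 259 RPKM and the heart and muscle isoform Cox6a2 at 1.67 RPKM. Cox6b1 was at 244 RPKM and the testis isoform Cox6b2 at 1.76 RPKM. Cox7a2 was at 184 RPKM, Cox7a2l, a factor of supercomplex assembly, at 44.9 RPKM and the muscle isoform Cox7a1 at 1.88 RPKM. Cox7b was at 155 RPKM and Cox7b2 at 1.57 RPKM. Ndufa4, a complex IV subunit despite its name, was at 293 RPKM and its paralog Ndufa4l2 at 0.784 RPKM. Cox8a was at 312 RPKM, whereas the muscle isoform Cox8b lay between 0 and 0.561 CPM in single mice and Cox8c had no read. In each of these sets the common isoform was higher than its partner in all 16 mice. The 3 genes for subunit c of the ATP synthase encode the same mature protein, and Atp5g3 led with 235 RPKM over Atp5g1 with 4.72 and Atp5g2 with 1.56 RPKM. For Atp5g2, 86.9% of the 75-base stretches of the principal transcript also occur in another gene, so that its count is a lower limit.

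Promoters of nuclear-encoded subunits are known for sites of a few shared regulators, among them nuclear respiratory factor 1 (NRF1). In windows from 250 bases before to 50 bases after the RefSeq start (GRCm38.p6), which matched 76 of the 92 nuclear-encoded genes, the NRF1 letters GCGCATGCG were found on either strand in 10 genes (13.2%), against 1.95% of 27025 genes of all kinds. The letters AAGATGGCG of YY1 were in 8 genes (10.5%, against 1.64%), CCGGAAGT of GABPA in 5 (6.58%, against 4.31%) and TCAAGGTCA of ESRRA in 2 (2.63%, against 0.466%). The NRF1 letters read almost the same on both strands, so both matches in the Cox6a1 promoter overlap. That promoter is printed as an example of a subunit transcribed in every mouse at 113 to 184 CPM. It shows bases 250 to 51 before the start (GRCm38.p6, chr5:115349009-115349208, minus strand), with the NRF1 match in capitals:
Cox6a1: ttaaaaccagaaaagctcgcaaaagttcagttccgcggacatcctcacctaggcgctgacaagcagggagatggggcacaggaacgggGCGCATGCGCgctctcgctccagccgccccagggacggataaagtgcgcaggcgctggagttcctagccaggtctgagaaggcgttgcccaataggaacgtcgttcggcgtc

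The first comparison asked how 3xTg-D differed from WT-D. Among 84 nuclear-encoded subunits, 2 were lower and none was higher at the threshold of the study, an unadjusted p up to 0.01. Both were complex IV subunits, Cox7c and Cox6a2, and both also passed at an adjusted p of 0.05 or less. With any 1 of the 8 mice left out, Cox7c still passed and Cox6a2 did not (adjusted p from 0.0546 to 0.0797). Over all genes tested, 4.91% were called in either direction, 2.47% were called lower and 1.85% passed the adjusted threshold, so that called genes were not more frequent among the subunits. Another 5 subunits had a p under 0.05. Of the 84, 48 were higher and 36 lower, with a median log2 fold change of 0.01, against -0.00 over all genes. In complex IV 13 of 18 subunits were lower and the median of the 18 was -0.06, while the medians were 0.01 for complex I, 0.06 for complex II, 0.04 for complex III and 0.01 for complex V.

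Cox7c (ENSMUSG00000017778.14, GRCm38, chr13:86044816-86046904) encodes a small structural subunit of cytochrome c oxidase. It had 11.1, 10.2, 9.40 and 8.93 CPM in the 4 WT-D mice and 4.72, 5.53, 6.26 and 3.97 CPM in the 4 3xTg-D mice. The WT-S mice had 10.1, 8.80, 12.96 and 8.73 CPM, and the 3xTg-S mice 3.59, 4.53, 5.52 and 3.45 CPM. Every 3xTg mouse was below every WT mouse, under vehicle and inhibitor alike. The group means were 9.91 ± 0.955 (SD, n = 4) in WT-D, 10.2 ± 1.98 in WT-S, 5.12 ± 0.988 in 3xTg-D and 4.27 ± 0.957 in 3xTg-S. Cox7c fell by 0.95 on the log2 scale in 3xTg-D vs WT-D (SE 0.15), or by 48.2%, with an adjusted p of 0.00835 by edgeR's quasi-likelihood test. It fell by 1.23 in 3xTg-S vs WT-D (SE 0.16; adjusted p = 0.00302) and by 1.27 in 3xTg-S vs WT-S (SE 0.18; adjusted p = 0.00654). The counted level of Cox7c, 13.6 RPKM, was far below the complex IV median, and 50.4% of the 75-base stretches of its principal transcript also occur in Gm10012 or Gm12338. Those copies had mean raw counts of 0.4375 and 3.875, against 149 for Cox7c. The count thus rests on the unshared remainder of the transcript, and whether sequence differences between the strains move reads in or out of it was not tested.

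Cox6a2 (ENSMUSG00000030785.8, chr7:128205435-128206387) encodes the heart and muscle form of subunit 6A. It had 1.18, 1.34, 1.45 and 1.28 CPM in WT-D, against 0.659, 0.587, 0.689 and 0.653 CPM in 3xTg-D. In WT-S the values were 2.02, 2.23, 1.79 and 1.08 CPM, and in 3xTg-S 0.653, 0.858, 0.770 and 0.917 CPM. All 3xTg mice again lay below all WT mice, and WT-S was the most scattered group (1.78 ± 0.496, SD, n = 4). Cox6a2 fell by 1.01 on the log2 scale in 3xTg-D vs WT-D (SE 0.19; adjusted p = 0.0267), by 0.72 in 3xTg-S vs WT-D (SE 0.21; adjusted p = 0.138) and by 1.16 in 3xTg-S vs WT-S (SE 0.27; adjusted p = 0.0778). The gene lies inside Itgad on the opposite strand, and the strand setting of the counting is not given in the sources used here, so reads of both genes may be mixed. Its call in 3xTg-S vs WT-D was lost with DESeq2, without the count filter, with the replicate block, with the choroid plexus score as covariate and without WT-D replicate 2, 3 or 4 or 3xTg-S replicate 1 or 3. The common isoform Cox6a1 did not pass in any of these comparisons, with a log2 fold change of 0.03 in 3xTg-D vs WT-D (95% interval -0.18 to 0.24). With 3xTg-D replicate 2 left out, 4 subunits were called in 3xTg-D vs WT-D, the others being Cox7a2l and Cox6b2. Without 3xTg-D replicate 4 there were 6, of which Ndufc2, Sdhc, Uqcrfs1 and Ndufa8 were higher. Without WT-D replicate 2 or without WT-D replicate 3 there were 3, Ndufs5 or Ndufa12 being higher. The share of all genes called in these fits is not given here, so the rises are not read as particular to the subunits.

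**Figure D2:**
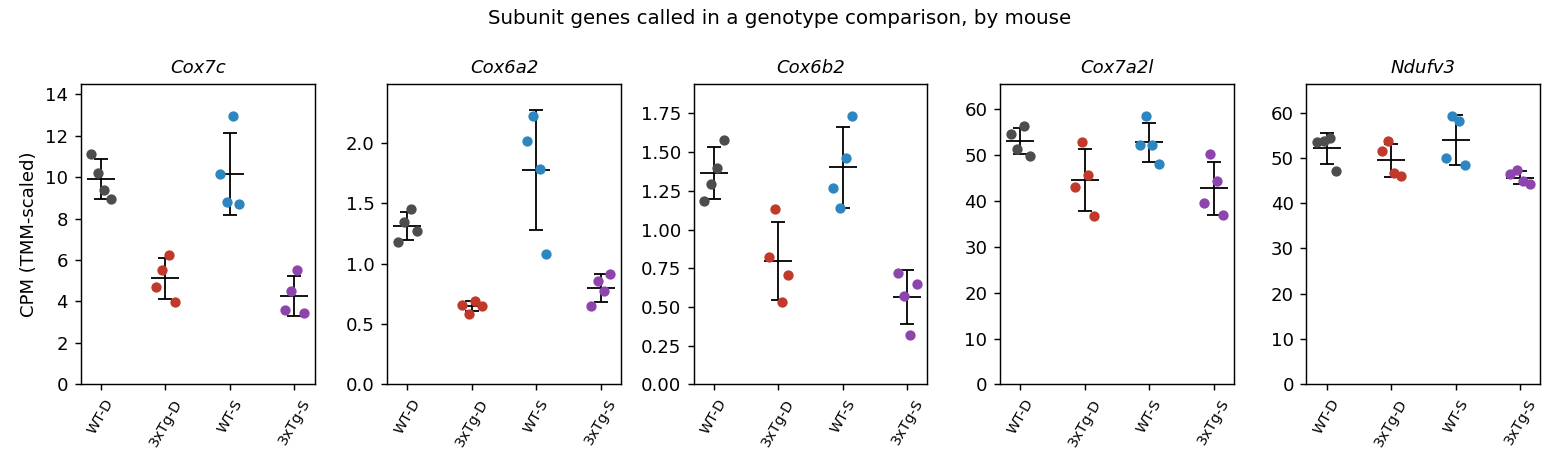
TMM-scaled CPM (y axis, from 0) of the 5 nuclear-encoded subunits called in a genotype comparison, by group (x axis). Points are single mice and the bars give the mean ± SD of 4 mice. Cox7c and Cox6a2 do not overlap between WT and 3xTg mice, and Cox7a2l and Ndufv3 do.

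3xTg-S vs WT-D asked which differences from the healthy vehicle group were present in 3xTg mice after SCD inhibition. Here 5 of 84 nuclear-encoded subunits were lower and none was higher: Cox7c, Cox6b2, Cox7a2l, Cox6a2 and Ndufv3. Over all genes, 5.69% were called, 3.43% were called lower and 1.58% passed the adjusted threshold, which only Cox7c and Cox6b2 did among the subunits. The share of subunits called was close to that of all genes. In direction the subunits were more one-sided, with 72 of 84 lower and a median of -0.11, against -0.00 for all genes. The median was -0.11 in complex I, 0.00 in complex II, -0.13 in complex III, -0.16 in complex IV and -0.09 in complex V. In the same comparison 1 of 4 choroid plexus markers, 3 of 4 ependymal and 2 of 5 oligodendrocyte markers were lower and 2 of 4 hemoglobin genes higher, and 3 subunits were called with the choroid plexus score as a covariate. The count fell to 2 or 3 without WT-D replicate 1, 2 or 3 or without 3xTg-S replicate 1, 3 or 4, and it rose to 21, all lower, without 3xTg-S replicate 2. The share of all genes called in these fits is not given here, so the rise is not read as particular to the subunits.

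Cox6b2 (ENSMUSG00000051811.14, chr7:4751792-4753094) encodes the testis form of subunit 6B and was expressed here at about 1 CPM. It had 1.18, 1.30, 1.40 and 1.58 CPM in WT-D, against 0.823, 1.13, 0.530 and 0.708 CPM in 3xTg-D. The WT-S values were 1.27, 1.14, 1.47 and 1.73 CPM, and the 3xTg-S values 0.719, 0.572, 0.321 and 0.647 CPM. Each 3xTg group lay below its WT counterpart without overlap. Cox6b2 fell by 1.27 on the log2 scale in 3xTg-S vs WT-D (SE 0.27; adjusted p = 0.0463), or by 58.6%, and by 1.31 in 3xTg-S vs WT-S (SE 0.28; adjusted p = 0.0561). In 3xTg-D vs WT-D its log2 fold change of -0.75 (SE 0.25; adjusted p = 0.233, edgeR) did not pass. Its paralog Cox6b1 had 128 to 176 CPM over all mice and was not called.

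Cox7a2l (ENSMUSG00000024248.14, chr17:83501918-83517330), a factor that helps complexes III and IV join into supercomplexes, had 54.7, 51.4, 56.3 and 49.9 CPM in WT-D and 39.6, 50.2, 44.3 and 36.9 CPM in 3xTg-S. The groups overlapped by 3xTg-S replicate 2. Its log2 fold change was -0.33 (SE 0.10; adjusted p = 0.137, edgeR). A processed pseudogene, Gm6969 (chr12:24638669-24639010), shares 15.3% of the 75-base stretches of its principal transcript and took reads in some mice and hardly any in others. Gm6969 had 0.102 to 0.3499 CPM in WT-D replicates 1, 3 and 4, 7.63 CPM in WT-D replicate 2 and 10.6 to 12.9 CPM in 3xTg-S. With the counts of both genes added before the fit, the log2 fold change of Cox7a2l in 3xTg-S vs WT-D was -0.03 (SE 0.09; adjusted p = 0.933, edgeR), and the call was lost. The sums ran from 50.04 to 59.1 CPM in WT-D and from 47.5 to 63.0 CPM in 3xTg-S and overlapped widely.

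Ndufv3 (ENSMUSG00000024038.17, chr17:31520115-31531331), an accessory subunit of the NADH-binding arm of complex I, had 53.4, 53.7, 54.4 and 47.0 CPM in WT-D and 46.4, 47.4, 44.8 and 44.1 CPM in 3xTg-S. All 3xTg-S mice but replicate 2 were below all WT-D mice. Ndufv3 fell by 0.21 on the log2 scale (SE 0.06; adjusted p = 0.164, edgeR), or by 13.5%. It missed the threshold in 3xTg-S vs WT-S with a log2 fold change of -0.26 (adjusted p = 0.274, edgeR), although those groups did not overlap. Both Ndufv3 and Cox7a2l lost the call in 3xTg-S vs WT-D when any of WT-D replicates 1 to 3 or 3xTg-S replicates 1, 3 and 4 was left out.

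3xTg-S vs WT-S compared the genotypes under the inhibitor. Without the replicate block, 3 of 84 nuclear-encoded subunits were lower (Cox7c, Cox6b2 and Cox6a2) and none was higher, and only Cox7c passed the adjusted threshold. The fit with the block is given in the last section. Over all genes, 4.25% were called, 2.47% were called lower and 1.4% passed the adjusted threshold. Of the 84 subunits, 78 were lower, with a median of -0.19, against 0.00 for all genes. The medians by complex were -0.18 for complex I, -0.10 for complex II, -0.20 for complex III, -0.22 for complex IV and -0.17 for complex V. Without WT-S replicate 4 the count rose to 19, all lower, and without 3xTg-S replicate 2 to 8, all lower. These counts too stand without the share of all genes called in the same fits. Ependymal markers were again lower (2 of 4 called) and hemoglobin genes higher (2 of 4 called).

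The inhibitor was compared with vehicle within each genotype. In WT-S vs WT-D, no nuclear-encoded subunit was called by edgeR's quasi-likelihood test or DESeq2, and 0.188% of all genes were. Ndufs3, a core subunit of complex I, had the smallest p-value (log2 fold change 0.14, SE 0.06, adjusted p = 1.00, edgeR), and it was the only one under 0.05. The direction was nonetheless shared, since 77 of 84 subunits were higher, with a median of 0.07, against -0.00 for all genes. Mice with the same replicate number deviated together in this comparison, so the fit with the replicate number as a block is given beside it. It called no nuclear-encoded subunit and 2 mitochondrial-encoded ones, mt-Nd1 (log2 fold change 0.17) and mt-Nd2 (0.18), neither at the adjusted threshold (adjusted p = 0.920 for both, edgeR). Calls over all genes rose with the block from 31 to 115. Without WT-S replicate 4, 6 nuclear-encoded subunits were higher (Ndufb1-ps, Ndufc2, Sdhc, Cox6c, Atp5k and Cox6a2). That count stands without the share of all genes called in the same fit and is not read as particular to the subunits.

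In 3xTg-S vs 3xTg-D most nuclear-encoded subunits were slightly lower. Without the replicate block none was called by edgeR's quasi-likelihood test or DESeq2, and 0.904% of all genes were. A p under 0.05 was found for Ndufa12 (log2 fold change -0.17), Uqcr11 (-0.28) and Atp5g1 (0.17), the adjusted p of each being 0.722. Of the 84 subunits, 77 were lower, with a median of -0.10, against 0.01 for all genes. Uqcr11, a small complex III subunit, had 38.0, 44.5, 39.5 and 33.4 CPM in 3xTg-D and 28.2, 38.9, 33.0 and 27.9 CPM in 3xTg-S. The groups overlapped. In the same comparison 2 of 5 oligodendrocyte markers and 2 of 4 ependymal markers were lower. Without 3xTg-S replicate 2, 5 subunits were lower (Ndufb8, Uqcr11, Ndufa12, Uqcrfs1 and Ndufb3), and without 3xTg-D replicate 4, only Atp5md was. Here too the share of all genes called in the same fits is not given. With the replicate block, the subunits called were all lower, and none passed the adjusted threshold. Uqcr11 had the smallest adjusted p (0.0539, edgeR). Calls over all genes rose with the block from 149 to 1133.

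The interaction over all 16 mice tested whether the inhibitor acted differently in both genotypes. Without the replicate block it called no nuclear-encoded subunit by edgeR's quasi-likelihood test or DESeq2, while 0.595% of all genes were called. The smallest p-values were those of Ndufa12 (interaction -0.36 on the log2 scale, SE 0.15), Uqcr11 (-0.41, SE 0.18) and Uqcrq (-0.39, SE 0.18), each with an adjusted p of 0.788 by edgeR. Of the 84 subunits, 77 had a negative interaction, with a median of -0.17, against 0.01 for all genes. Without WT-S replicate 4, 5 subunits passed (Ndufa12, Atp5k, Cox6c, Atp5md and Uqcr11), all negative. The share of all genes that passed in that fit is not given. With the replicate block, the subunits called all had a negative interaction, and the smallest adjusted p was 0.240 (edgeR). Calls over all genes rose with the block from 98 to 624. Cox7c had a log2 fold change of 0.04 in WT-S vs WT-D (95% interval -0.28 to 0.35), -0.26 in 3xTg-S vs 3xTg-D (95% interval -0.69 to 0.16) and an interaction of -0.30 (95% interval -0.81 to 0.21), intervals that leave room for a moderate effect of the inhibitor in either direction in WT mice and for a fall in 3xTg mice. The comparisons share groups, so their medians are not independent of each other. The fold changes by complex are plotted side by side.

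**Figure D3:**
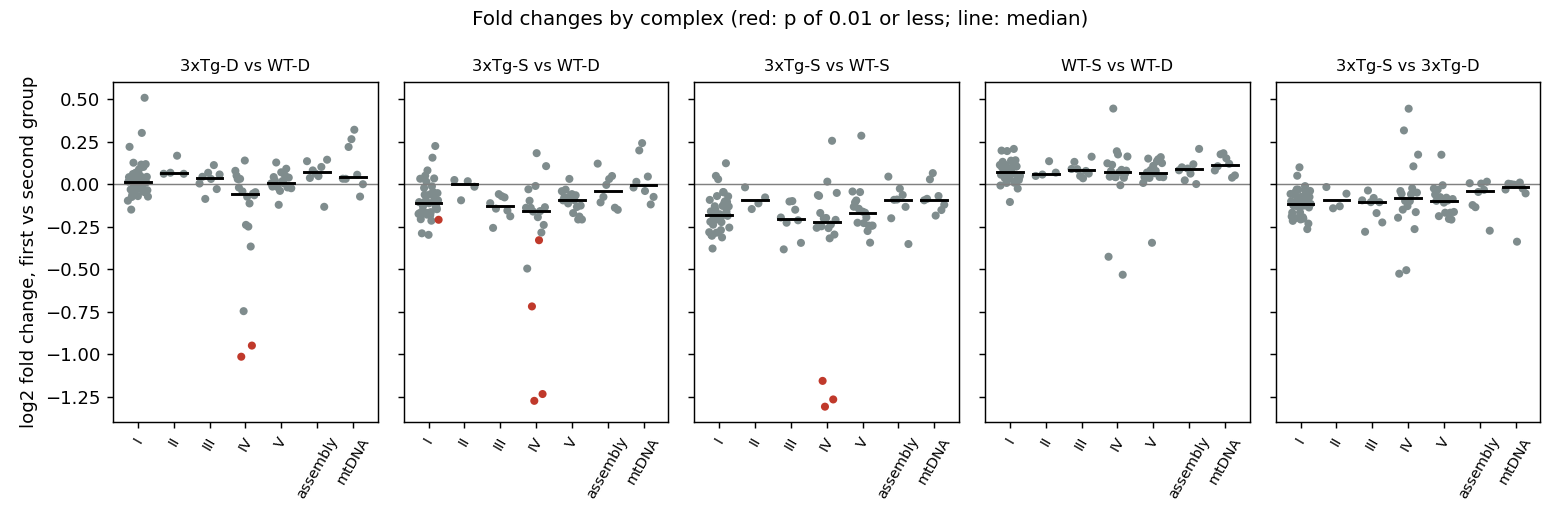
Log2 fold change of each of the 100 genes (y axis) by complex, assembly factors and mitochondrial DNA (mtDNA; x axis), in 5 pairwise comparisons. Each point is a gene, red points have an unadjusted p of 0.01 or less, and lines are medians. The red points are 2, 5 and 3 genes in the genotype comparisons, all below 0, and there are none in the comparisons of inhibitor and vehicle.

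Single mice and a measure of how reads were assigned moved with the direction shared by the nuclear-encoded subunits. Summed over the 84 genes, their share of gene reads was 0.882% ± 0.0333 (SD, n = 4) in WT-D, 0.910% ± 0.0973 in WT-S, 0.883% ± 0.0590 in 3xTg-D and 0.813% ± 0.0568 in 3xTg-S, and the groups overlapped. Within every group, replicate 4 had the lowest share: 0.836% in WT-D, 0.773% in WT-S, 0.816% in 3xTg-D and 0.742% in 3xTg-S. The measure was the share of uniquely aligned reads that were counted on no gene, called reads outside genes for short. It does not tell reads in introns from reads between genes. This share was highest in replicate 4 in WT-D (12.5%), WT-S (13.1%) and 3xTg-S (15.1%), but in 3xTg-D it was highest in replicate 1 (11.3%). It was lowest in 3xTg-S replicate 2 (7.82%), the mouse whose omission raised the counts of lower subunits. With this share as a covariate, the median of the nuclear-encoded subunits went from 0.07 to -0.01 in WT-S vs WT-D, from 0.01 to -0.06 in 3xTg-D vs WT-D, from -0.10 to -0.03 in 3xTg-S vs 3xTg-D and from -0.17 to -0.03 in the interaction. In 3xTg-S vs WT-D it was -0.10 in place of -0.11, and in 3xTg-S vs WT-S it was -0.09 in place of -0.19. The number of subunits called nonetheless rose with this covariate in 3xTg-D vs WT-D and 3xTg-S vs WT-D, as given in the last section. What sets the share of reads outside genes was not tested.

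**Figure D4:**
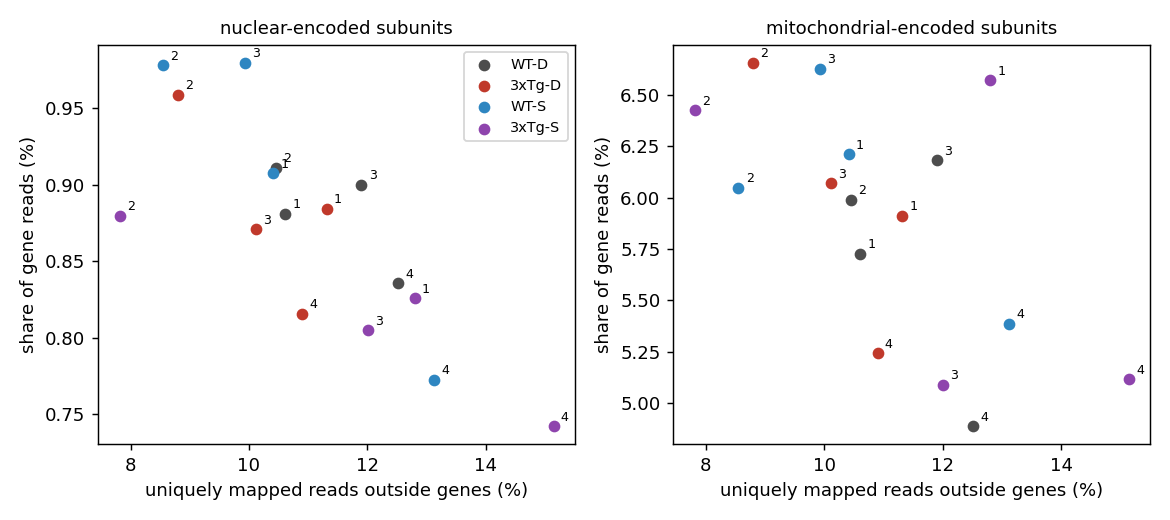
Share of gene reads (%) taken by the 84 nuclear-encoded subunits (left, y axis) and the 8 mitochondrial-encoded subunits (right, y axis) against the share of uniquely aligned reads counted on no gene (%, x axis, labelled outside genes). Each point is a mouse, labelled with its replicate number and colored by group. Replicate 4 has the lowest nuclear-encoded share in each of the 4 groups.

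The mitochondrial-encoded subunits took 4.89% to 6.65% of gene reads per mouse. Their share was 5.70% ± 0.570 (SD, n = 4) in WT-D, 6.07% ± 0.515 in WT-S, 5.97% ± 0.580 in 3xTg-D and 5.80% ± 0.808 in 3xTg-S, with overlap between all groups. Without the replicate block, none of the 8 was called in any comparison or in the interaction by edgeR's quasi-likelihood test or DESeq2. Their medians were 0.04 in 3xTg-D vs WT-D, -0.00 in 3xTg-S vs WT-D, -0.01 in 3xTg-S vs 3xTg-D, 0.11 in WT-S vs WT-D, -0.09 in 3xTg-S vs WT-S and -0.11 in the interaction. An unadjusted p under 0.05 was found for 2 of the 8, in 3xTg-D vs WT-D, and for none elsewhere. mt-Nd2 had 5724, 6774, 6833 and 5496 CPM in WT-D, against 7105, 8630, 7662 and 6368 CPM in 3xTg-D. Only 3xTg-D replicate 4 fell within the WT-D range. Its log2 fold change was 0.26 (SE 0.10; adjusted p = 0.315, edgeR). mt-Nd1 had 9406, 9986, 9577 and 7562 CPM in WT-D, against 10773, 11644, 10816 and 9207 CPM in 3xTg-D, with the same single mouse overlapping. Its log2 fold change was 0.22 (SE 0.10; adjusted p = 0.378, edgeR).

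The other mitochondrial-encoded genes varied more between mice than between genotypes. mt-Co1 had a mean of 17647 ± 2008 CPM (SD, n = 4) in WT-D, against 18012 ± 1934 CPM in 3xTg-D, with a log2 fold change of 0.03 (95% interval -0.18 to 0.25). mt-Cytb had 11082 ± 1232 CPM in WT-D, against 11307 ± 950 CPM in 3xTg-D, with a log2 fold change of 0.03 (95% interval -0.17 to 0.23). mt-Nd4 (0.06), mt-Nd5 (-0.07) and mt-Nd6 (-0.00) were as close in that comparison. mt-Nd3, on few counts, had the widest interval (0.32, 95% interval -0.39 to 1.03). In WT-S vs WT-D all 8 were higher, from 0.04 for mt-Nd5 to 0.18 for mt-Nd2, none past the threshold without the replicate block and mt-Nd1 and mt-Nd2 past it with the block, as given above. The ribosomal RNAs of mitochondrial DNA, which are no members but are transcribed with them, took 1.81% to 2.93% of gene reads.

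Ndufs5, an accessory subunit of complex I (ENSMUSG00000028648.13, chr4:123712710-123718202), was split in a way that its own count does not show. A processed pseudogene, BC002163 (chr16:42955631-42955949, inside Zbtb20), matches it at 317 of 319 aligned bases (99.4%). The window that holds both differences is printed, with the differing bases in capitals. Counted from 1 at the 5′ end of the window, they are T14C and A38G, the base of Ndufs5 first:
Ndufs5: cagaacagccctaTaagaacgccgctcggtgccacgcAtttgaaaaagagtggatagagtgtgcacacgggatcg
BC002163: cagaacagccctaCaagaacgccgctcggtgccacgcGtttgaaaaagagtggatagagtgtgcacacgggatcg

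BC002163 had 10.3 CPM in WT-D replicate 1, 10.9 in WT-D replicate 3, 10.9 in WT-S replicate 1, 13.6 in WT-S replicate 3 and 12.9 in 3xTg-S replicate 2. In the other 11 mice it had 0.0642 to 0.318 CPM. Ndufs5 had 7.46 to 10.6 CPM in the first 5 mice and 13.2 to 19.3 CPM in the other 11, and no mouse lay in between. The sum of both genes was 18.3 to 24.2 CPM in the first 5 mice and 13.3 to 19.4 CPM in the other 11. The sums thus overlapped but tended to be higher with the copy. The values of both genes come from reads that differ at few bases, so how many reads each gene gave is uncertain. For Ndufs5 alone, the log2 fold change in 3xTg-D vs WT-D was 0.51 (SE 0.21; adjusted p = 0.351, edgeR), and for the summed counts it was -0.02 (SE 0.11; adjusted p = 0.955). All 3xTg-D mice were among those with few reads on the copy, whereas WT-D replicates 1 and 3 were not. Why the copy was counted in these mice was not tested.

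**Figure D5:**
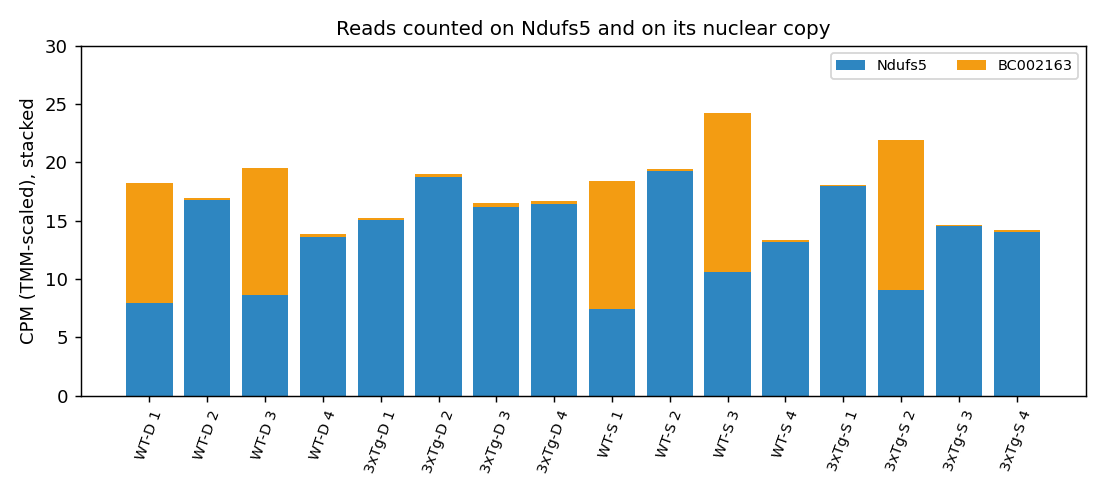
TMM-scaled CPM (y axis, stacked from 0) counted on Ndufs5 and on its copy BC002163 in each of the 16 mice (x axis). In 5 mice the copy has 10.3 to 13.6 CPM and Ndufs5 7.46 to 10.6 CPM, and in the other 11 mice nearly all reads are on Ndufs5.

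Shared sequence was not general among the nuclear-encoded genes. Of 91 with a principal transcript, 53 shared no 75-base stretch with another annotated gene, 16 shared over 20% and 3 over 50%, which were Atp5g2, Atp5l (76.0%) and Cox7c. Cox6a2, Cox6b2 and Ndufv3 shared none.

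The subunits that carry the chemistry of the pathway were among those not called. Of 14 nuclear-encoded catalytic core subunits, none passed in any comparison by edgeR's quasi-likelihood test, and only Ndufs3, in WT-S vs WT-D, had an unadjusted p under 0.05. In 3xTg-D vs WT-D they ran from -0.04 to 0.12 on the log2 scale with a median of 0.04, and in 3xTg-S vs WT-S all 14 were lower, from -0.19 to -0.02, with a median of -0.10. In 3xTg-S vs WT-D 12 of 14 were lower (median -0.07), in 3xTg-S vs 3xTg-D all 14 were (median -0.07), and in WT-S vs WT-D 13 of 14 were higher (median 0.04). Their interactions were all negative, with a median of -0.11. Atp5b, which carries the catalytic sites of ATP synthase, had a log2 fold change of -0.01 in 3xTg-D vs WT-D (95% interval -0.12 to 0.09). Atp5a1, the alpha subunit, was at 0.00 (95% interval -0.11 to 0.12) and Ndufs1, the largest iron-sulfur subunit of complex I, at -0.01 (95% interval -0.13 to 0.11).

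Complex II, the only complex with no mitochondrial-encoded part, had no member with a p under 0.05 in any comparison without the replicate block. With the block, Sdhc was called in the interaction (-0.26 on the log2 scale, adjusted p = 0.255, edgeR). Sdha had 408 ± 16.7 CPM (SD, n = 4) in WT-D, 421 ± 12.6 in WT-S, 425 ± 6.95 in 3xTg-D and 420 ± 33.4 in 3xTg-S. Its log2 fold change in 3xTg-D vs WT-D was 0.06 (95% interval -0.04 to 0.16), an interval far from the fall of Cox7c. Sdhb, the iron-sulfur subunit, was at 0.07 in that comparison, and the membrane anchors Sdhc and Sdhd were at 0.17 (95% interval -0.01 to 0.34) and 0.06. Among the 17 isoform pair members tested of the 19 listed, 1 was lower in 3xTg-D vs WT-D, 3 in 3xTg-S vs WT-D and 2 in 3xTg-S vs WT-S, all of them named above, while 2.47%, 3.43% and 2.47% of all genes were called lower in these comparisons. With so few genes in the list, these counts are given as a description. Cox4i2 did not pass in 3xTg-S vs 3xTg-D (log2 fold change -0.53, adjusted p = 0.722, edgeR), although these groups did not overlap.

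The 8 assembly factors of complex I, Ndufaf1 to Ndufaf8, were called in no comparison. Their medians were 0.07 in 3xTg-D vs WT-D, -0.04 in 3xTg-S vs WT-D, -0.04 in 3xTg-S vs 3xTg-D, 0.09 in WT-S vs WT-D, -0.09 in 3xTg-S vs WT-S and -0.14 in the interaction. Ndufaf7, a methyltransferase that acts on a complex I subunit, had the only p under 0.05, with a log2 fold change of -0.13 in 3xTg-D vs WT-D and -0.14 in 3xTg-S vs WT-D, neither past the threshold (adjusted p = 0.376 and 0.374, edgeR).

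Of 49 further assembly factors and electron carriers listed, 46 could be tested. In 3xTg-D vs WT-D, 2 of these were higher and none was lower, while 4.91% of all genes were called. In 3xTg-S vs WT-D, 3 were higher and 1 was lower (5.69% of all genes called). In 3xTg-S vs WT-S 1 was higher (4.25% of all genes called), and the inhibitor comparisons and the interaction called none. With so few genes, these counts are given as a description. Cox18, which inserts part of the mitochondrial-encoded subunit 2 of complex IV into the membrane, had 9.58, 8.54, 11.1 and 11.7 CPM in WT-D, against 16.1, 15.04, 14.5 and 14.4 CPM in 3xTg-D. In WT-S it had 7.93, 8.44, 7.69 and 11.6 CPM, and in 3xTg-S 14.96, 13.6, 15.2 and 13.7 CPM. All 3xTg mice were above all WT mice. Cox18 rose by 0.55 in 3xTg-D vs WT-D (SE 0.11; adjusted p = 0.0294), 0.47 in 3xTg-S vs WT-D (adjusted p = 0.0719) and 0.68 in 3xTg-S vs WT-S (adjusted p = 0.0329). Tmem126b, a factor of complex I assembly, rose by 0.27 in 3xTg-D vs WT-D (SE 0.06; adjusted p = 0.0533) and 0.28 in 3xTg-S vs WT-D (adjusted p = 0.0883), without overlap in either. Both comparisons use the same WT-D mice. In 3xTg-S vs WT-S it did not pass (0.14; adjusted p = 0.600, edgeR), and the groups overlapped. In 3xTg-S vs WT-D, Cox15, which makes heme A for complex IV, rose by 0.23 (adjusted p = 0.129), and Coa3, which acts in the early assembly of mt-Co1, fell by 0.29 (adjusted p = 0.128). The call of Cox15 was lost without WT-D replicate 1, 2 or 3 or 3xTg-S replicate 1 or 3, and that of Coa3 without WT-D replicate 1, 2 or 3 or 3xTg-S replicate 1. Coa3 and Cox15 each overlap genes on the opposite strand. The carrier cytochrome c (Cycs) and cytochrome c1 (Cyc1) were not called.

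Of 36 regulators of mitochondrial biogenesis and of mitochondrial DNA and RNA, 35 were tested. None was called in 3xTg-D vs WT-D, 3xTg-S vs WT-D, 3xTg-S vs 3xTg-D or WT-S vs WT-D. Ppargc1b, a coactivator of mitochondrial genes, rose by 0.50 in 3xTg-S vs WT-S (SE 0.15; adjusted p = 0.193) and was the only one called in the interaction, with 0.72 (SE 0.21; adjusted p = 0.788, edgeR). Over all genes, 4.25% were called in 3xTg-S vs WT-S and 0.595% in the interaction. Ppargc1b was followed by mouse. It had 7.89, 5.85, 7.55 and 5.92 CPM in WT-D, 4.92, 5.07, 5.40 and 6.12 CPM in WT-S, 5.54, 5.11, 6.41 and 6.59 CPM in 3xTg-D and 8.82, 5.72, 7.89 and 8.47 CPM in 3xTg-S. WT-D and WT-S overlapped, as did 3xTg-D and 3xTg-S. The call in 3xTg-S vs WT-S was lost without WT-S replicate 1, 2 or 3 or 3xTg-S replicate 1, 3 or 4 and with the choroid plexus score as covariate, and the interaction call was lost with the share of reads outside genes as covariate. The median of the 35 was 0.01 in 3xTg-D vs WT-D and -0.01 in 3xTg-S vs WT-D.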

How the data were processed

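Hippocampal RNA of 16 mice was sequenced as single-end reads from poly(A) libraries with molecular identifiers. The authors trimmed reads with Trimmomatic 0.35, aligned them to GRCm38 (Gencode M23) with STAR 2.5.1b and deposited raw counts per gene, without normalization. Strand setting and removal of duplicates are not given in the sources used here. The table also holds 4 alignment summary lines, which were left out of library sizes and tests. All 16 sample columns were used, grouped by the labels.

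In R 4.3.3, edgeR 4.0.16 filtered genes (filterByExpr, minimum count 10, minimum total 15), scaled libraries by TMM and compared groups pairwise by its quasi-likelihood test (two-sided). The threshold of the study, an unadjusted p up to 0.01, defined calls, with Benjamini-Hochberg adjusted p over all 16475 genes beside it. The interaction was fitted to all mice. Intervals used the degrees of freedom of that test. Levels per kilobase and shared 75-base stretches used Gencode M21 transcripts on the same build, and promoters came from RefSeq. Nothing says that replicates of a group came from separate cages or litters, so p-values measure the spread between these mice. Shares of reads are given as descriptions.

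Members and lists were chosen with earlier results of these data known. Named were all mitochondrial-encoded members, called members (at most 20 per comparison), complex II, isoform pairs, the catalytic core, the highest and lowest gene per kilobase of each complex, and called genes of 2 lists (assembly factors and carriers, biogenesis regulators). Ndufs5, BC002163, Gm6969, Uqcr11, Ndufa12, Uqcrq and other genes outside the rule were named after their values were seen.

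Pairing was checked by correlating the deviations of same-numbered mice from their group means. The 4 correlations were 0.11 to 0.34 in WT-S vs WT-D, and at least 1 was under 0.1 in each other comparison. The labels' replicate numbers are its only source. Alternatives were median-ratio size factors, DESeq2 1.42.0 (likelihood ratio test), no count filter, library sizes from nuclear genes, a single fit of all mice, the replicate block, 2 covariates (share of reads outside genes, choroid plexus score), the adjusted threshold, each mouse left out and, added after the data were seen, counts of Ndufs5 and Cox7a2l summed with their copies. The edgeR fits were tested on simulated data.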

Additional observations from a re-analysis of the deposited data

Results flagged for a closer look

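Within 220 groups of 4 mice examined, chance would set apart the highest or lowest mouse in about 1 group in 20. The groups set apart below were not more frequent than that. In WT-D, replicate 4 was set apart for Atp5g3 (155 CPM, the others 169 to 171), Ndufv3 (47.0 CPM, the others 53.4 to 54.4) and Ndufs8 (49.4 CPM, the others 54.6 to 54.7). In 3xTg-D, replicate 4 was set apart for Cox6b1 (139 CPM, the others 153 to 154) and Uqcrc2 (212 CPM, the others 230 to 232). In each of these 5 it was the low mouse, and it had the lowest share of nuclear-encoded subunit reads in its group. The 5 values come from replicate 4 of the same groups and are not independent of each other. Atp5g2 was at 0.670 CPM in 3xTg-D replicate 2, the others at 1.31 to 1.43 CPM.

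The copies stood apart as well. BC002163 was at 12.9 CPM in 3xTg-S replicate 2, the others at 0.0642 to 0.216 CPM, and Gm6969 was at 7.63 CPM in WT-D replicate 2, the others at 0.102 to 0.3499 CPM. In 3xTg-D replicate 4 there were 0.346 reads of mitochondrial ribosomal RNA per read of a mitochondrial-encoded subunit, the others having 0.439 to 0.450.

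Ppargc1b was the only gene of the lists for which the effect of the inhibitor differed between genotypes at an unadjusted p of 0.01 or less (0.72 on the log2 scale, 3xTg minus WT). It did not pass after adjustment.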

How the results depend on the processing

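Counts of nuclear-encoded subunits called that moved by over 1.5 times were as follows. In 3xTg-D vs WT-D, 2 became 4 without the count filter and 4 with the share of reads outside genes as covariate. In 3xTg-S vs WT-D, 5 became 14 with that covariate, 3 with the choroid plexus score and 2 at the adjusted threshold. In 3xTg-S vs WT-S, 3 became 6 with DESeq2, 8 without the filter, 5 with all mice in one fit and 1 at the adjusted threshold. Leaving out 1 mouse gave 2 to 6 calls in 3xTg-D vs WT-D, 2 to 21 in 3xTg-S vs WT-D, 0 to 5 in 3xTg-S vs 3xTg-D, 0 to 6 in WT-S vs WT-D, 3 to 19 in 3xTg-S vs WT-S and 0 to 5 in the interaction, and 0 to 1 mitochondrial-encoded call in 3xTg-D vs WT-D. For all settings in this paragraph, calls over all genes are not given beside the counts. A rise or fall is therefore not read as particular to the subunits.

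The replicate block raised calls of nuclear-encoded subunits to 5, 9, 12, 17 and 6 in 3xTg-D vs WT-D, 3xTg-S vs WT-D, 3xTg-S vs 3xTg-D, 3xTg-S vs WT-S and the interaction, and of mitochondrial-encoded ones to 2 in 3xTg-D vs WT-D and 2 in WT-S vs WT-D. Calls over all genes rose with it in the first 5 of these, from 809 to 944, 937 to 1075, 149 to 1133, 701 to 1338 and 98 to 624. In WT-S vs WT-D they rose from 31 to 115. The nuclear-encoded subunits called with the block were all lower in the 3xTg-S comparisons and all negative in the interaction. With the block, Cox7c, Cox7a2l, Uqcr11, Cox6b2 and Ndufa3 passed the adjusted threshold in 3xTg-S vs WT-S. Their adjusted p-values were 0.000592, 0.0258, 0.0316, 0.0433 and 0.0475 (edgeR). Over all genes, 517 passed it there, against 230 without the block. This fit did not sum Cox7a2l with its copy. Only Cox7c passed it in 3xTg-D vs WT-D and 3xTg-S vs WT-D (adjusted p = 0.0182 and 0.00659, edgeR). In 3xTg-D vs WT-D, Cox7c and Cox6a2 were lower and Ndufc2, Ndufa12 and Ndufs5 higher. The block gave Cox6a2 an adjusted p of 0.0870 in 3xTg-D vs WT-D. Same-numbered mice correlated on average at 0.04, 0.18, 0.21 and 0.24 in the first 4 comparisons, but at least 1 pair in each was under 0.1, so the block was not taken as the main pairing there.

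Cox7c in all 3 genotype comparisons, Cox6a2 in 3xTg-D vs WT-D and Cox6b2 in 3xTg-S vs WT-D kept their direction and call at the unadjusted threshold under every alternative run. The cause of the other changes was not tested. With 4 mice per group and genes near 1 CPM, such as Cox6a2 and Cox6b2, precision is limited by few reads.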
